A study of Mus musculus with 38 samples.

Results

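60577 tumors were compared 7 days after the last dose of chemotherapy, a time point named TP2, between 4 treated mice and 3 control mice. These 7 tumors were chosen by their labels alone, from 38 samples in all, and every gene that passed the expression filter was tested. 60577 is a mouse high-grade serous ovarian cancer (HGSOC) cell line from a female FVB mouse, and the labels give no genotype for it. Cells of this single line were injected into the peritoneal cavity of female FVB mice aged 8 to 9 weeks, where they grow in the omentum. Treated mice received 20 mg/kg of carboplatin with 10 mg/kg of paclitaxel by weekly intraperitoneal injection, for 3 doses, and control mice received vehicle. Both groups were killed 42 days after the cells were injected. Omental tumors were cut, and bulk RNA of the frozen part was depleted of ribosomal RNA and sequenced from paired ends with strand information. Other 60577 tumors, 3 control and 3 treated, were taken 1 day after the last dose (TP1, day 36). TP2 tumors of a second line, HGS2, which grows in female C57BL/6 mice, numbered 4 control and 3 treated. Both sets were used to show where the 60577 response at TP2 differed. The TP1 tumors also entered the estimate of spread behind the TP2 p-values. So did 4 treated 60577 tumors taken 21 days after the last dose (TP3, day 56). Tumors of both models set the expression filter.

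Carboplatin forms crosslinks in DNA that block replication and are removed by the Fanconi anemia, nucleotide excision and homologous recombination pathways. Paclitaxel binds the beta subunit of tubulin, stabilizes microtubules and arrests cells in mitosis. Damage stabilizes p53, which induces genes of cell cycle arrest and apoptosis, and p53 and the DREAM complex repress genes of replication and mitosis. The omentum is a fold of adipose tissue covered by mesothelium that holds milky spots, which are clusters of B cells, T cells and macrophages without a capsule, and it is a usual site of ovarian cancer metastasis. A whole omental tumor is therefore a mixture of malignant epithelium, fibroblasts, endothelium, adipocytes and leukocytes, and in such bulk samples fewer cells of a type and less RNA per cell cannot be told apart.

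Promoters of 5 genes are shown as examples of the mitosis, replication and interferon-stimulated lists described below, each with a motif that a larger share of its list than of all genes holds. Each window runs from 250 bases before to 50 bases after the gene start in RefSeq (GRCm38.p6) and is printed 5' to 3' on the strand of the gene, with motif matches in capitals. In the promoters of Cdk1 (chr10:69352863-69353162, minus strand), the kinase of mitotic entry, Plk1 (chr7:122159185-122159484, plus strand), a kinase of spindle assembly, and Ccnb1 (chr13:100786437-100786736, minus strand), the cyclin partner of Cdk1, the capitals mark the cell cycle homology region, searched as TTTGAA or TTTAAA. In the promoter of Mcm6 (chr1:128359656-128359955, minus strand), a subunit of the replicative helicase, they mark E2F sites, searched as TTTGGCGC or TTTCGCGC. In the promoter of Ifit3 (chr19:34583279-34583578, plus strand), an interferon-induced antiviral protein, they mark the interferon-stimulated response element, searched as GAAA and GAAA with 2 bases of any kind between them.

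Cdk1: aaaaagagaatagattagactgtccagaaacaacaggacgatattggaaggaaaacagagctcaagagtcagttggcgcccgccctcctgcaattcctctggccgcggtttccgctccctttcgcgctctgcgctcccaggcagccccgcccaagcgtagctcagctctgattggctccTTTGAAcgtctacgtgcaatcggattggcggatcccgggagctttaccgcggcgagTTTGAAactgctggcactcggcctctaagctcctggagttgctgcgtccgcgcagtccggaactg
Plk1: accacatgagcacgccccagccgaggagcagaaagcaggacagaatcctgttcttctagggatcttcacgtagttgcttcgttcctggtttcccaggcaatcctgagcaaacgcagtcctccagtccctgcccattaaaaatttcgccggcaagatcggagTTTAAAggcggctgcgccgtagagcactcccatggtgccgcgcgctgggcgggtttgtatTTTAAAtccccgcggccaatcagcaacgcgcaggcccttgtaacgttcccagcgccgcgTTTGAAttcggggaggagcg
Ccnb1: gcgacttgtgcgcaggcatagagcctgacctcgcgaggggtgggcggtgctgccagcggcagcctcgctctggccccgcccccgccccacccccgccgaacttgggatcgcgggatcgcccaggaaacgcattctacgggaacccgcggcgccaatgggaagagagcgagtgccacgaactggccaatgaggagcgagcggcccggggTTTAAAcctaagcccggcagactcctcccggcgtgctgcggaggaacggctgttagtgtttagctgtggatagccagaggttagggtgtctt
Mcm6: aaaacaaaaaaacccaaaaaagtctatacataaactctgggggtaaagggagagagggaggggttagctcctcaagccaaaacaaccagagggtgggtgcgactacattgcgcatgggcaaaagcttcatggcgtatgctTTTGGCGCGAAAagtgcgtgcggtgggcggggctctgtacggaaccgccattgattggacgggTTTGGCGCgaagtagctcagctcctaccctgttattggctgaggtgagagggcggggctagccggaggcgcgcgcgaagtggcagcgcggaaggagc
Ifit3: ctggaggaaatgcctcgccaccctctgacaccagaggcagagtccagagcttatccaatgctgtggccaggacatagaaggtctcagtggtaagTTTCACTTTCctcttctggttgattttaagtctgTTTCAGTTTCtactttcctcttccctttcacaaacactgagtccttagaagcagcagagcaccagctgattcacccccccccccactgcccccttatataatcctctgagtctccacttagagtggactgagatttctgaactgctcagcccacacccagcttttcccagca

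Both strands were searched, so a match can read as the reverse complement, and overlapping matches form a single run of capitals. The matches began 71 and 15 bases before the start of Cdk1, 89 and 29 bases before and 30 bases after that of Plk1, 42 bases before that of Ccnb1, 110 and 47 bases before that of Mcm6, and 156 and 122 bases before that of Ifit3. The cell cycle homology region occurred in 15 of the 17 mitosis genes with a window (88.2%) and in 30.6% of all 27025 genes with one. The E2F site occurred in 8 of 20 replication genes (40.0%) against 0.929% of all genes, and the interferon-stimulated response element in 11 of 17 interferon-stimulated genes (64.7%) against 3.99%. A CCAAT box (CCAAT), which often lies near the cell cycle homology region, was in 88.2% of the mitosis promoters and in 41.1% of all. The core of the hypoxia response element, searched as ACGTG or GCGTG, was in all 19 promoters of the hypoxia list and in 46.7% of all promoters, but also in 14 of 17 mitosis promoters and in 14 of 20 replication promoters. A match is a match of letters and not a measured binding site.

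The libraries held between 22314660 and 31177745 counts in controls and between 19456373 and 26668705 in treated tumors. Of 16241 genes tested, 13926 of them protein coding, 3969 (24.4%) were called, meaning that the log2 fold change was beyond 1 in either direction at an adjusted p-value under 0.05, and rose and fell are used below in this sense. Of these, 2408 rose (14.8%, 1782 protein coding) and 1561 fell (9.61%, 1450 protein coding), while the median log2 fold change of all genes was 0.03. The shares of 14.8% and 9.61% are those to set beside the counts of each list below. Genes of the cultured line made up a larger share of those that fell than of those that rose. A level of at least 1 CPM, the count scaled to library size by TMM, in both 60577 culture libraries was found for 88.2% of the genes that fell, 28.9% of those that rose and 75.3% of all genes tested. The groups did not overlap in log2 CPM for 8191 genes (50.4%). All p-values below are quasi-likelihood values of edgeR, adjusted by Benjamini-Hochberg over all genes tested, and CPM are listed for controls 1 to 3 and then for treated tumors 1 to 4.

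Several libraries stood apart. The 2 near-identical 7SL RNA genes, between which reads cannot be told apart, took 14.1%, 2.91% and 3.81% of the counts in controls and 9.38%, 13.1%, 19.4% and 26.5% in treated tumors, and protein-coding genes took 80.8% to 91.3% in controls and 66.5% to 83.5% in treated tumors. Control 2 had the highest summed level of the hypoxia list and the lowest of the T cell, B cell, MHC class II and endothelial lists, controls 1 and 3 held pancreatic acinar transcripts, treated tumor 1 held the most adipocyte transcripts, and treated tumor 2 the most of several interferon-stimulated genes. Krt8 of epithelium, Msln of mesothelium and Csf1r of macrophages were detected in every tumor. Pancreatic islet and skeletal muscle genes passed the filter in 0 of 5 cases each, with Ckm at 0 in all 3 controls and Gcg at 0 in all 4 treated tumors. The part of these features in the results below was not tested unless a value is given beside a result. Without control 2, 3433 genes were called, and without treated tumor 1, 4346. With the replicate numbers, of which 1 to 3 are shared by the groups, as a block, 3749 genes were called, and 2737 when only the 7 tumors entered that fit. Replicate 4 has no TP2 control, so in the block fit of the 7 tumors treated tumor 4 adds nothing to the contrast. That fit rests on tumors 1 to 3 of each group, with few degrees of freedom left, and calls lost in it may reflect this. With 7SL RNA share as a covariate 2750 genes were called.

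**Figure D1:**
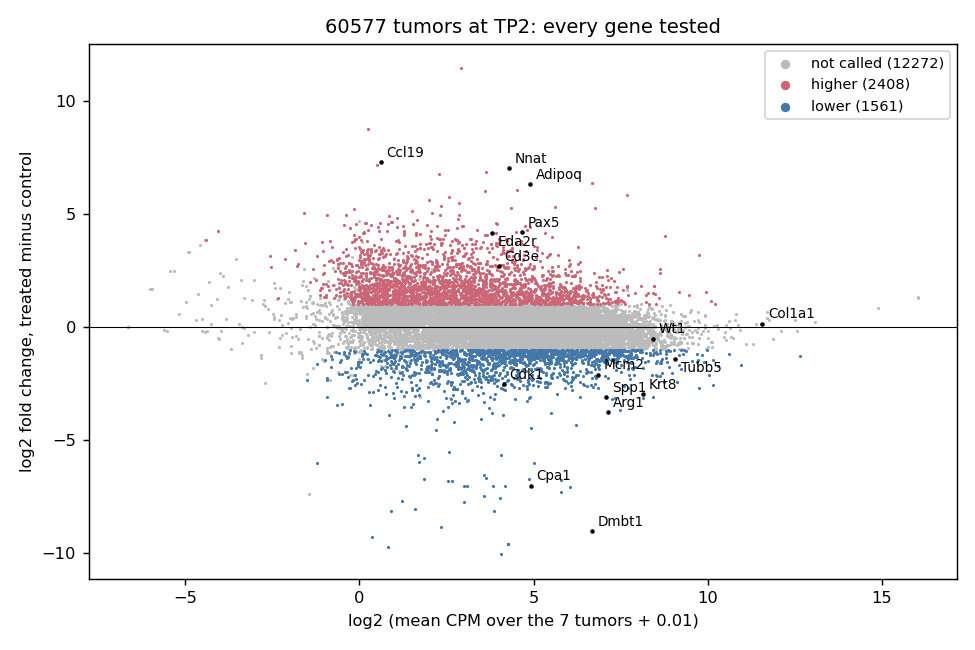
Every gene tested in 60577 tumors at TP2. The x axis gives the log2 of the mean CPM over the 7 tumors plus 0.01 and the y axis the log2 fold change, treated minus control. Points are genes, colored by call (2408 higher, 1561 lower), and named genes are marked. Cdk1, Mcm2 and Krt8 lie below 0, Cd3e, Pax5 and Adipoq above it, and Col1a1 close to it.

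**Figure D2:**
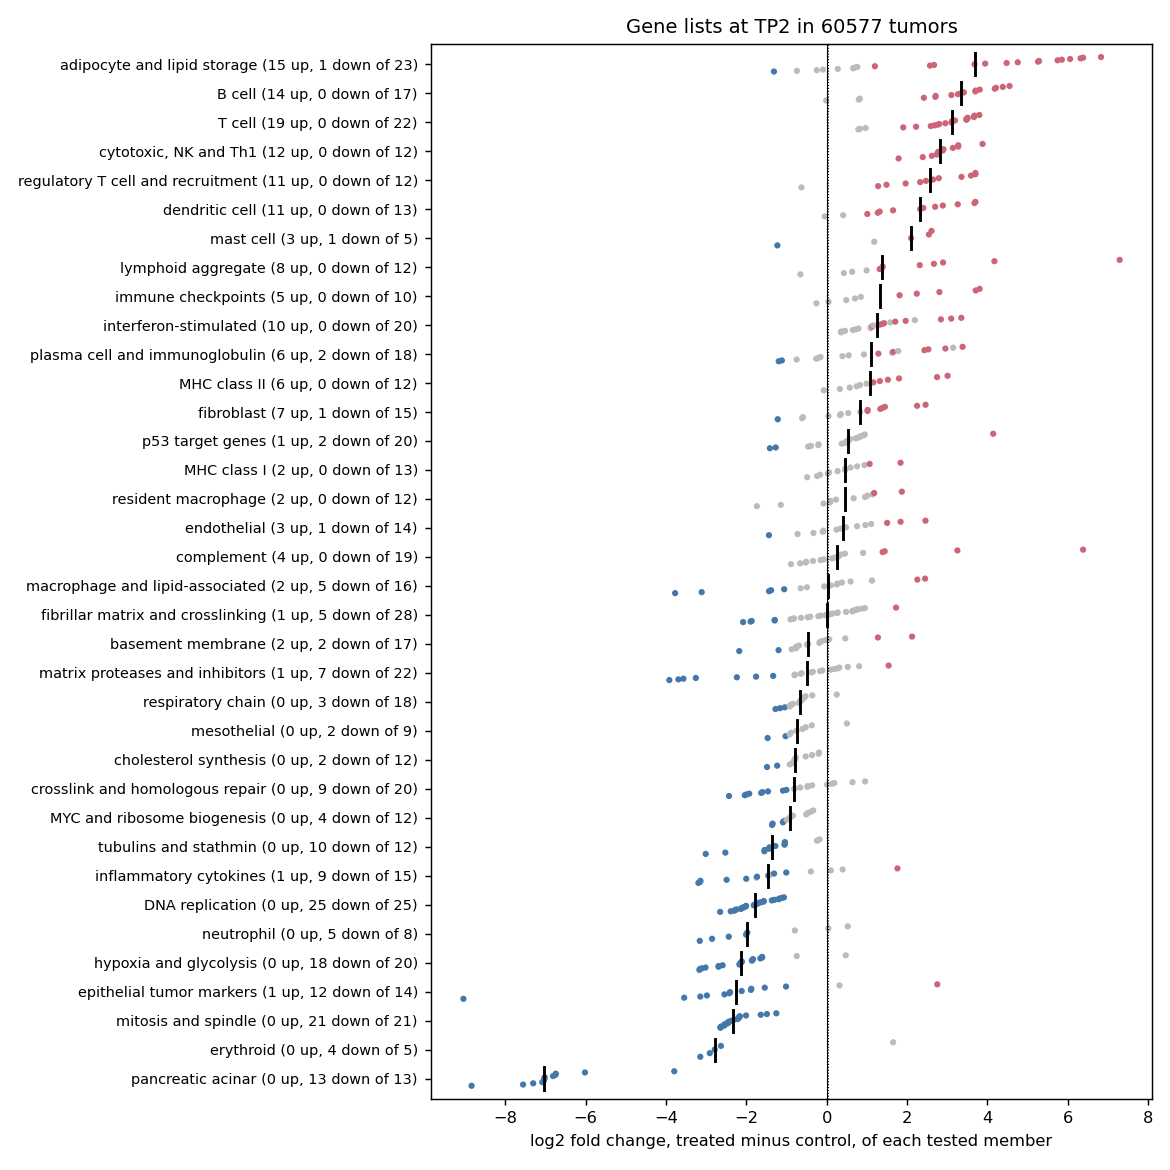
Log2 fold change of each tested member of the 36 gene lists with at least 5 tested genes. Each point is a gene, colored by call as in the plot of all genes, the short black line is the median of the list and the dotted vertical line the median of all genes (0.03). The mitosis and DNA replication lists lie wholly below 0, and the cytotoxic list wholly above it.

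Genes of cell division fell together. Of 21 genes of mitosis and the spindle, 21 fell and 0 rose (median log2 fold change -2.34), against 9.61% of all genes that fell, and the 4 treated tumors lay below the 3 controls in each of them. Ccnb1 was at 42.9, 46.3 and 35.4 CPM in controls and 5.99, 10.05, 6.13 and 4.39 CPM in treated tumors (log2 fold change -2.64, SE 0.28, adjusted p = 5.96e-06). Cdk1 (chr10:69335146-69352938) was at 33.3, 36.7 and 30.8 CPM in controls and 5.91, 7.59, 4.52 and 4.94 CPM in treated tumors (log2 fold change -2.54, SE 0.24, adjusted p = 2.85e-06). Both genes stood at 30.8 CPM or more in every control and at 10.05 CPM or less in every treated tumor. Plk1 was at 22.6, 23.1 and 17.2 CPM in controls and 4.57, 5.58, 3.95 and 4.47 CPM in treated tumors (log2 fold change -2.17, SE 0.23, adjusted p = 4.9e-06). Mki67, the antigen of cycling cells, was at 278, 259 and 259 CPM in controls and 93.3, 116, 78.1 and 91.4 CPM in treated tumors, a smaller fall (log2 fold change -1.49, SE 0.15, adjusted p = 3.96e-06). The highest treated value of Mki67 was below the lowest control value. The fall reached Aurka and Aurkb (log2 fold changes -2.47 and -1.64), kinases of the centrosome and the chromosomal passenger complex, Top2a (-2.18), which decatenates chromosomes, and Cenpe (-1.25), a kinetochore motor and the smallest fall of the list. The summed level of the list was 1254, 1286 and 1169.7 CPM in controls and 277, 392, 238 and 254 CPM in treated tumors. In the culture libraries of the 60577 line it was 3691 and 2845 CPM.

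DNA replication genes followed the same direction. All 25 fell (median -1.79), among them the 6 subunits of the MCM helicase. Mcm6 was at 182, 202 and 218 CPM in controls and 31.3, 43.7, 28.1 and 24.5 CPM in treated tumors and had the largest fall of the list (log2 fold change -2.65, SE 0.19, adjusted p = 2.86e-07). Mcm2 was at 203, 202 and 219 CPM in controls and 45.2, 65.7, 43.1 and 37.1 CPM in treated tumors (log2 fold change -2.12, SE 0.16, adjusted p = 4.04e-07). Neither gene overlapped between the groups. Pcna, the sliding clamp of the polymerases, was at 195, 227 and 188 CPM in controls and 61.7, 54.4, 24.5 and 30.5 CPM in treated tumors (log2 fold change -2.25, SE 0.24, adjusted p = 5.47e-06), with treated tumors 3 and 4 lower than treated tumors 1 and 2. Rrm2, the regulated subunit of ribonucleotide reductase, was at 29.8, 40.3 and 24.1 CPM in controls and 6.57, 8.05, 5.35 and 5.88 CPM in treated tumors (log2 fold change -2.28, SE 0.19, adjusted p = 1.21e-06). Of the origin licensing factors Cdc6 fell by 2.39 and Cdt1 by 2.01 on the log2 scale, and the transcription factor E2f1 fell by 1.36. Ccne1, the G1/S cyclin, was the smallest fall (log2 fold change -1.06, adjusted p = 0.00216). Leaving out each TP2 tumor in turn, 24 to 25 of the 25 genes fell.

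The repair list was divided. Of 20 genes of crosslink repair, homologous recombination and nucleotide excision, 9 fell and 0 rose (median -0.80). Exo1, an exonuclease that resects broken ends, was at 17.5, 15.4 and 19.1 CPM in controls and 3.03, 3.47, 3.17 and 3.15 CPM in treated tumors (log2 fold change -2.43, SE 0.16, adjusted p = 1.36e-07). Fancd2, which is monoubiquitinated at crosslinks, was at 11.7, 13.1 and 13.1 CPM in controls and 3.99, 5.54, 4.21 and 4.60 CPM in treated tumors (log2 fold change -1.46, SE 0.22, adjusted p = 7.58e-05). In both of these genes the groups were apart. Fanci, Bard1, Brca2, Blm and Chek1 also fell. Brca1 was lower in every treated tumor, at 12.8, 12.03 and 12.9 CPM in controls and 7.14, 8.05, 8.10 and 8.61 CPM in treated tumors, but its log2 fold change of -0.66 (SE 0.15, adjusted p = 0.00188) stayed within the limit of 1. The damage kinases Atm and Atr had log2 fold changes of 0.01 and 0.19 and were not called. Of the nucleotide excision genes, Xpa had 0.96 (adjusted p = 0.000722), Ercc4 0.64 and Ercc1 0.13, all within the limit.

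The p53 targets had a positive median (0.53), with 1 of 20 called higher and 2 called lower. Eda2r, a receptor of the tumor necrosis factor family that p53 induces (chrX:97333840-97377216), was at 1.75, 1.24 and 0.960 CPM in controls and 29.8, 23.7, 12.2 and 28.7 CPM in treated tumors, so that the lowest treated value was several times the highest control value (log2 fold change 4.15, SE 0.44, adjusted p = 5.34e-06). Cdkn1a, which encodes the cell cycle inhibitor p21, was at 24.6, 157 and 12.4 CPM in controls and 103, 96.5, 48.8 and 107 CPM in treated tumors. The groups overlapped because control 2 was the highest of the 7 tumors, and the difference was not called (log2 fold change 0.46, SE 0.56, adjusted p = 0.497). Without control 2 it was called, at 2.26, adjusted p = 7.87e-05. Control 2 was also the highest in the hypoxia list. Mdm2, the ubiquitin ligase of p53, was at 50.6, 59.8 and 42.4 CPM in controls and 60.2, 67.2, 74.7 and 97.4 CPM in treated tumors (log2 fold change 0.55, SE 0.16, adjusted p = 0.00907), and Bax, a pore former of mitochondria, at 25.5, 24.9 and 17.3 CPM in controls and 41.0, 35.1, 32.7 and 47.6 CPM in treated tumors (log2 fold change 0.79, SE 0.15, adjusted p = 0.000494). For both, every treated tumor was above every control, within the limit of 1. Phlda3, Zmat3, Trp53inp1 and Bbc3 lay between 0.83 and 0.95 on the log2 scale and were not called. Plk2, also on this list, was at 96.3, 94.6 and 75.7 CPM in controls and 29.6, 36.3, 35.7 and 31.9 CPM in treated tumors and fell (log2 fold change -1.41, SE 0.19, adjusted p = 3.48e-05), as did Perp (-1.27), a desmosomal p53 target. Without control 2, 4 of the 20 genes rose and 2 fell, and without treated tumor 3, 3 rose and 2 fell.

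Genes of microtubules, to which paclitaxel binds, were lower. Of 12 genes of tubulins and stathmin 10 fell and 0 rose (median -1.35). Tubb5, a main beta tubulin of dividing cells, was at 776, 929 and 821 CPM in controls and 406, 385, 210.4 and 255 CPM in treated tumors (log2 fold change -1.42, SE 0.18, adjusted p = 2.21e-05). Stmn1, which destabilizes microtubules, was at 196, 189.9 and 227 CPM in controls and 40.7, 54.8, 25.4 and 21.3 CPM in treated tumors (log2 fold change -2.52, SE 0.28, adjusted p = 7.29e-06). Tubb3, the beta tubulin of neurons and of some carcinomas, was at 6.16, 10.6 and 2.79 CPM in controls and 0.806, 1.19, 0.364 and 0.809 CPM in treated tumors (log2 fold change -3.01, SE 0.45, adjusted p = 8.44e-05). The groups were apart for the 3 genes, with treated tumors 3 and 4 lower than 1 and 2 for Tubb5 and Stmn1. Tubb2a (-0.24) and Tuba4a (-0.18) were not called. Tubulin genes are alike in sequence, so RSEM's split of reads among them is uncertain. With 7SL RNA share as a covariate 6 of the 12 fell.

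Epithelial transcripts fell as well. Of 14 tested markers 12 fell and 1 rose (median -2.26), and their summed level was 2697, 3197 and 2309 CPM in controls and 398, 651, 361 and 353 CPM in treated tumors. Krt8, a keratin of simple epithelia (chr15:101996698-102004482), was at 509, 766 and 423 CPM in controls and 65.4, 123, 53.8 and 44.3 CPM in treated tumors (log2 fold change -2.98, SE 0.31, adjusted p = 4.58e-06). Krt19 was at 612, 1065 and 724 CPM in controls and 152, 221, 95.8 and 129 CPM in treated tumors (log2 fold change -2.42, SE 0.33, adjusted p = 3.52e-05). Epcam, an adhesion molecule of carcinomas, was at 33.9, 42.9 and 59.8 CPM in controls and 12.2, 11.5, 6.39 and 4.18 CPM in treated tumors (log2 fold change -2.41, SE 0.36, adjusted p = 7.93e-05). Every treated tumor was below every control for all 3, and treated tumor 2 was the highest of the treated tumors for both keratins. Krt18, Krt7, Cdh1, Elf3, Ehf, Spint1, Cldn3 and Muc1 fell too, from -1.01 (Muc1) to -3.55 (Elf3). Sox17, a transcription factor of ovarian carcinoma that endothelial cells also make, was at 2.94, 0.101 and 2.18 CPM in controls and 11.5, 5.66, 19.1 and 10.6 CPM in treated tumors and rose (log2 fold change 2.76, SE 0.68, adjusted p = 0.00316), while both culture libraries of 60577 had 0 counts of it. Dmbt1, a mucosal glycoprotein that pancreas also makes, was at 611, 1.75 and 105 CPM in controls and 0.269, 0.924, 0.156 and 0.383 CPM in treated tumors (log2 fold change -9.04, SE 1.49, adjusted p = 0.000164), and its order over the controls was that of the pancreatic acinar genes. Without control 1 it was -6.89. The mesothelial list, whose genes the 60577 line also made in culture, had 2 of 9 genes lower and 0 higher (median -0.75). Upk3b was at 1255, 1184 and 1546 CPM in controls and 457, 705, 348 and 410.0 CPM in treated tumors (log2 fold change -1.47, SE 0.25, adjusted p = 0.000224). Wt1 was at 394, 422 and 436 CPM in controls and 207, 308, 325 and 324 CPM in treated tumors and Msln, mesothelin, at 169, 161 and 246 CPM in controls and 72.7, 118, 101 and 124 CPM in treated tumors. Both were lower in every treated tumor, with log2 fold changes of -0.52 (adjusted p = 0.00522) and -0.88 (adjusted p = 0.00612). With the replicate number as a block 4 of the 9 fell, Msln among them (-1.03, adjusted p = 0.00301).

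Hypoxia and glycolysis genes fell in treated tumors. Of 20 tested genes 18 fell and 0 rose (median -2.13), and the summed level was 6525, 16652 and 5718 CPM in controls and 2375, 2563, 1767 and 2018 CPM in treated tumors. Control 2 was far above the other controls, but controls 1 and 3 were also above all 4 treated tumors. Slc2a1, the glucose transporter GLUT1 (chr4:119108711-119137983), was at 94.0, 412 and 67.3 CPM in controls and 30.3, 33.8, 28.1 and 34.9 CPM in treated tumors (log2 fold change -2.59, SE 0.46, adjusted p = 0.000282). Without control 2 the fall was -1.35, adjusted p = 0.000503. Ero1l, an oxidase of the endoplasmic reticulum that hypoxia induces, was at 112, 726 and 96.2 CPM in controls and 38.8, 37.1, 32.3 and 30.3 CPM in treated tumors (log2 fold change -3.17, SE 0.54, adjusted p = 0.000211). Ldha, lactate dehydrogenase, was at 454, 1039.5 and 338 CPM in controls and 195, 161, 84.4 and 112 CPM in treated tumors (log2 fold change -2.14, SE 0.32, adjusted p = 7.83e-05), and Vegfa, the angiogenic factor, at 392, 1229 and 355 CPM in controls and 88.4, 143, 209.6 and 165 CPM in treated tumors (log2 fold change -2.12, SE 0.39, adjusted p = 0.000376). All 4 genes had groups that did not overlap, and without control 2 the log2 fold changes were -1.59 for Ero1l, -1.52 for Ldha and -1.30 for Vegfa. Car9, Adm, Egln3, Pgk1, Eno1, Hk2, Aldoa, Pkm and Pdk1 also fell, and only Pfkp (-0.74) and Pfkfb3 (0.48) of the 20 were not called. Without control 2, 15 of the 20 fell and the median was -1.42, and with 7SL RNA share as a covariate 15 fell (median -1.66).

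Fewer genes of growth and energy metabolism passed the test. Myc, a transcription factor of growth, was at 61.3, 95.4 and 46.5 CPM in controls and 28.3, 32.7, 32.5 and 33.998 CPM in treated tumors (log2 fold change -1.09, SE 0.24, adjusted p = 0.00128), with control 2 the highest of the controls. Without control 2 its difference was -0.76, adjusted p = 0.0117, within the limit of 1. Of 12 genes of MYC and ribosome biogenesis 4 fell and 0 rose (median -0.91), which became 2 without control 2 and 7 without control 3. Nolc1, a nucleolar chaperone, was at 75.5, 96.4 and 62.7 CPM in controls and 31.4, 33.9, 28.2 and 28.4 CPM in treated tumors (log2 fold change -1.36, SE 0.16, adjusted p = 1.19e-05). The difference of Ncl, nucleolin, at 360.4, 459.5 and 358 CPM in controls and 251, 227, 154 and 155 CPM in treated tumors, lay at the limit of 1 (log2 fold change -0.997, SE 0.16, adjusted p = 0.000120) and was not called. In the respiratory chain list 3 of 18 genes fell and 0 rose (median -0.67), and 7 fell without treated tumor 1 and 1 without treated tumor 3. Cox5b, a subunit of cytochrome c oxidase, was at 56.7, 49.9 and 42.4 CPM in controls and 30.0, 24.6, 14.3 and 13.1 CPM in treated tumors (log2 fold change -1.27, SE 0.22, adjusted p = 0.000206). Ndufs1 of complex I was lower in every treated tumor, at 79.4, 73.3 and 73.3 CPM in controls and 61.2, 65.4, 54.2 and 54.6 CPM in treated tumors, by 0.36 on the log2 scale (adjusted p = 0.00404) and was not called. Cholesterol synthesis had 2 of 12 genes lower, Sqle (-1.48) among them, and 0 higher (median -0.80). Without treated tumor 1, 6 fell.

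**Figure D3:**
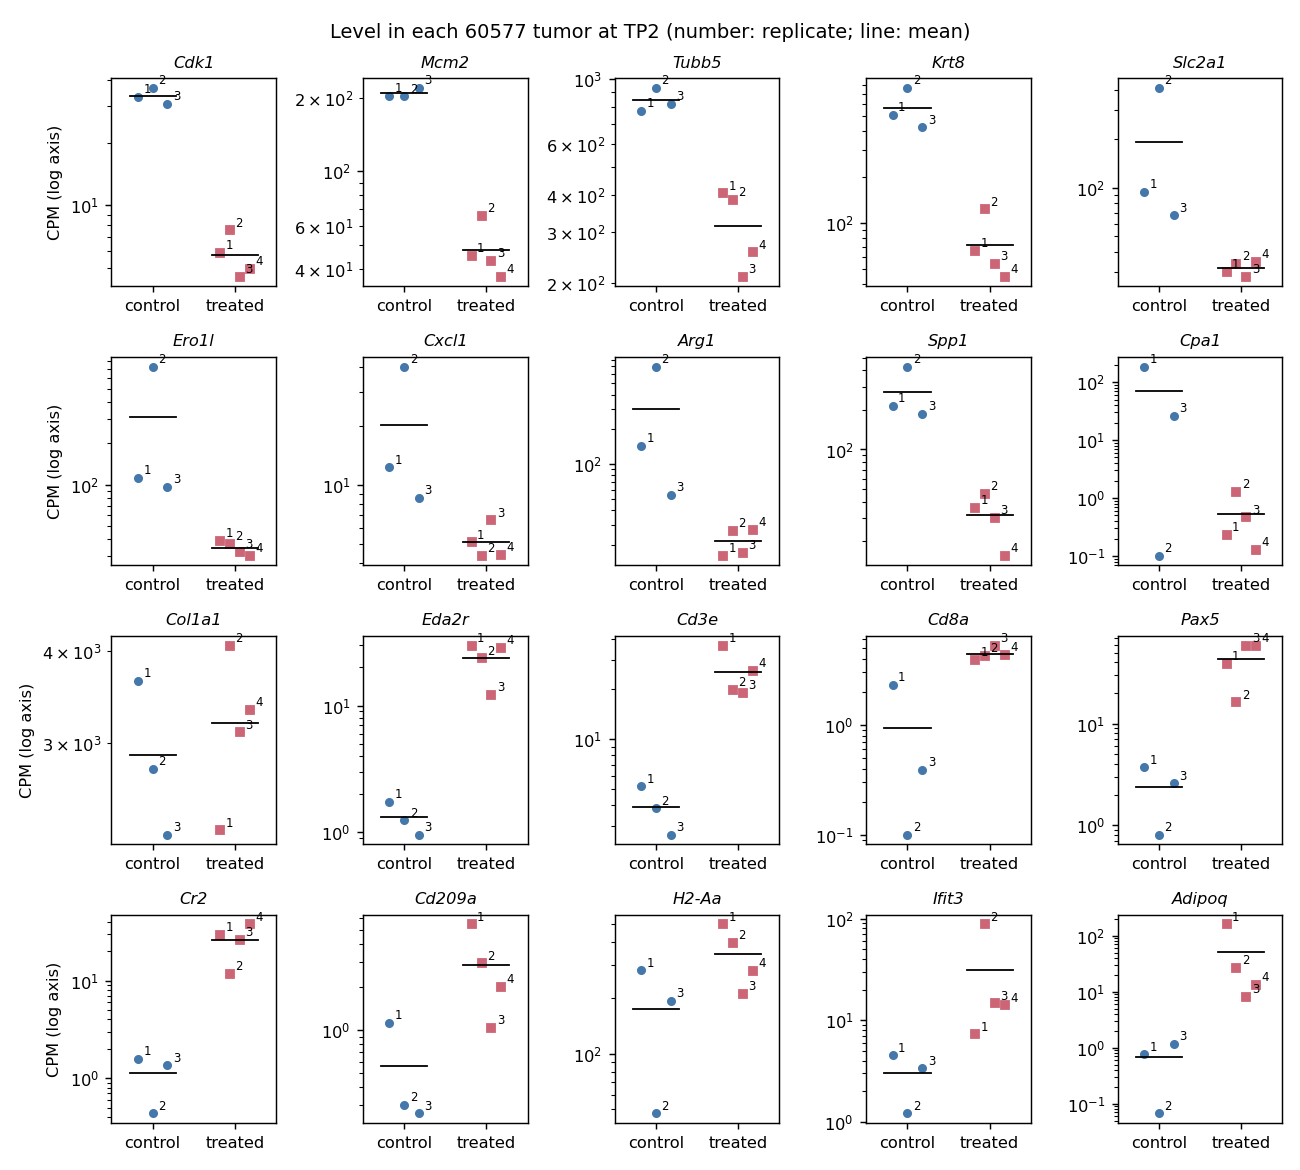
Level of 20 genes in each of the 7 tumors, in CPM on a log axis. Points are tumors (circles, 3 controls; squares, 4 treated) with their replicate number, and the black line is the group mean. Cdk1, Mcm2, Krt8 and Spp1 lie lower and Cd3e, Pax5, Cr2 and Eda2r higher in all 4 treated tumors, Col1a1 and H2-Aa overlap, and Cpa1 is high in controls 1 and 3 only.

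T cell transcripts rose. Of 22 genes 19 rose and 0 fell (median 3.11), against 14.8% of all genes that rose, and the summed level was 105, 44.0 and 68.1 CPM in controls and 546, 342, 368 and 429 CPM in treated tumors. Cd3e, a chain of the T cell receptor complex (chr9:44998740-45009627), was at 5.21, 3.83 and 2.66 CPM in controls and 36.6, 19.8, 19.0 and 25.8 CPM in treated tumors (log2 fold change 2.69, SE 0.42, adjusted p = 0.000110). Cd4, the coreceptor of helper T cells and of some macrophages, was at 9.20, 0.538 and 5.37 CPM in controls and 50.1, 31.8, 24.8 and 30.5 CPM in treated tumors (log2 fold change 2.77, SE 0.64, adjusted p = 0.00195). The groups were apart for both, with the lowest Cd4 in control 2 and the highest of both genes in treated tumor 1. Cd8a, the coreceptor of cytotoxic T cells, was at 2.31, 0.101 and 0.393 CPM in controls and 3.92, 4.24, 5.25 and 4.35 CPM in treated tumors. Every treated tumor was above every control (log2 fold change 2.23, SE 0.80, adjusted p = 0.0271), but the call rested on controls 2 and 3, since without control 2 the difference was 1.68, adjusted p = 0.0835 and without control 3 1.88, adjusted p = 0.0925, and with the replicate number as a block it was 2.13, adjusted p = 0.0591. Trbc1, a constant region of the T cell receptor whose near copy is Trbc2, was at 1.57, 0.134 and 0.524 CPM in controls and 18.6, 9.32, 7.32 and 6.65 CPM in treated tumors (log2 fold change 3.80, SE 0.67, adjusted p = 0.000288). The signaling genes Lck, Zap70 and Lat rose by 3.20, 3.68 and 3.67 on the log2 scale. Trac (0.79), Bcl11b (0.83) and Tcf7 (0.97) were the members that were not called.

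Of 17 genes of cytotoxic, natural killer and Th1 cells, 12 were tested and all 12 rose (median 2.84), with a summed level of the list of 18.2, 1.71 and 5.28 CPM in controls and 97.3, 61.4, 44.6 and 60.8 CPM in treated tumors. Prf1, perforin, was at 0.595, 0 and 0.0437 CPM in controls and 1.42, 1.54, 0.935 and 2.05 CPM in treated tumors (log2 fold change 2.75, SE 0.72, adjusted p = 0.00457), and 2.14 without control 2. Cd226, an activating receptor, was at 1.22, 0.101 and 0.437 CPM in controls and 13.5, 7.78, 5.40 and 8.31 CPM in treated tumors (log2 fold change 3.88, SE 0.58, adjusted p = 7.55e-05). The transcription factors Tbx21 and Eomes rose by 2.91 and 2.78. Gzmb, the granzyme, at 0.560, 0.0672 and 0.175 CPM in controls and 0.384, 0.616, 0.364 and 0.511 CPM in treated tumors, and Ifng, interferon gamma, at 0.105, 0 and 0 CPM in controls and 0.115, 0.424, 0 and 0.213 CPM in treated tumors, did not pass the filter on low values, nor did Gzma, Gzmk and Ncr1. In the fit of the 7 tumors with the replicate number as a block 9 of the 12 rose.

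Genes of regulatory T cells and their recruitment rose in 11 of 12 cases (median 2.56). Foxp3, the transcription factor that defines these cells, was at 3.15, 0.638 and 2.53 CPM in controls and 33.7, 19.7, 22.8 and 25.3 CPM in treated tumors (log2 fold change 3.60, SE 0.55, adjusted p = 9.59e-05). Ctla4, an inhibitory receptor, was at 1.85, 0.336 and 1.27 CPM in controls and 15.9, 9.36, 11.5 and 10.5 CPM in treated tumors (log2 fold change 3.36, SE 0.49, adjusted p = 6.68e-05). In both genes the lowest treated tumor was above the highest control. Ccl22, a chemokine of dendritic cells, was at 4.06, 1.61 and 3.01 CPM in controls and 61.2, 36.5, 21.1 and 32.0 CPM in treated tumors (log2 fold change 3.71, SE 0.61, adjusted p = 0.000166), and its receptor Ccr4 at 0.734, 0.168 and 0.655 CPM in controls and 9.83, 5.66, 5.30 and 6.18 CPM in treated tumors (log2 fold change 3.71, SE 0.53, adjusted p = 5.18e-05). Il2ra, Tnfrsf4, Tnfrsf18, Ccr8 and Ccl17 also rose, and Il10 had -0.63 and was not called. Among 10 checkpoint genes 5 rose and 0 fell (median 1.33). Btla, which B cells make as well as T cells, was at 3.78, 0.840 and 2.14 CPM in controls and 34.5, 22.8, 38.7 and 30.5 CPM in treated tumors (log2 fold change 3.81, SE 0.56, adjusted p = 6.57e-05), and Cd96, Tigit, Pdcd1lg2 and Cd200r1 rose too. Pdcd1 (PD-1) overlapped between the groups, at 22.9, 10.9 and 25.5 CPM in controls and 20.7, 17.2, 16.1 and 12.2 CPM in treated tumors (log2 fold change -0.25, SE 0.22, adjusted p = 0.336). Cd274 (PD-L1) was at 20.9, 39.7 and 12.5 CPM in controls and 30.8, 36.2, 35.0 and 35.0 CPM in treated tumors (log2 fold change 0.49, SE 0.29, adjusted p = 0.165), with control 2 the highest of the 7. Without control 2 it was called higher, at 1.03, adjusted p = 0.00437. Lag3 was at 8.50, 3.02 and 5.67 CPM in controls and 13.02, 10.05, 7.95 and 10.3 CPM in treated tumors (log2 fold change 0.85, adjusted p = 0.0193) and was called without control 1 (1.25).

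B cell transcripts rose as well. Of 17 genes 14 rose and 0 fell (median 3.35), with a summed level of 126, 42.2 and 94.9 CPM in controls and 514, 253, 528 and 565 CPM in treated tumors. Pax5, the factor of B cell identity, was at 3.71, 0.806 and 2.58 CPM in controls and 39.0, 16.1, 58.7 and 58.1 CPM in treated tumors (log2 fold change 4.19, SE 0.71, adjusted p = 0.000222). Cr2, the complement receptor CD21 of mature B cells and follicular dendritic cells, was at 1.57, 0.437 and 1.35 CPM in controls and 29.5, 11.8, 26.1 and 37.5 CPM in treated tumors, the largest rise of the list (log2 fold change 4.56, SE 0.77, adjusted p = 0.000215). Treated tumor 2 was the lowest treated tumor for both, yet it was above every control. Ms4a1 (CD20) was at 3.60, 0.269 and 1.88 CPM in controls and 36.4, 11.2, 26.4 and 25.6 CPM in treated tumors (log2 fold change 3.70, SE 0.80, adjusted p = 0.00128) and Blk at 0.979, 0.134 and 0.567 CPM in controls and 9.95, 4.89, 16.5 and 15.8 CPM in treated tumors (log2 fold change 4.39, SE 0.71, adjusted p = 0.000154). The members not called were Cd72 (-0.01), Spib (0.80) and Blnk (0.83). In culture the 60577 line had 0 counts of Ms4a1.

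Of 18 plasma cell and immunoglobulin genes 6 rose and 2 fell (median 1.11). Ighd, the heavy chain of naive mature B cells, was at 4.90, 1.01 and 3.40 CPM in controls and 35.6, 11.1, 50.7 and 32.2 CPM in treated tumors (log2 fold change 3.39, SE 0.72, adjusted p = 0.00114). Ighm was at 108, 3.93 and 171 CPM in controls and 589.7, 186, 159.5 and 235 CPM in treated tumors and was not called (log2 fold change 1.63, SE 1.11, adjusted p = 0.218), with control 2 far below and control 3 within the treated range. Jchain, which joins secreted antibodies, was at 19.7, 0.672 and 60.5 CPM in controls and 144, 16.9, 14.8 and 28.8 CPM in treated tumors (log2 fold change 0.93, SE 1.15, adjusted p = 0.499), and Mzb1, a chaperone of plasma cells, at 1.47, 0.235 and 3.14 CPM in controls and 9.33, 2.66, 4.31 and 5.50 CPM in treated tumors (log2 fold change 1.78, SE 0.80, adjusted p = 0.0669). The groups overlapped for both, and control 3 was the highest control. Igha (-0.75), Ighg1 (-0.20) and Ighg2b (-0.15) were not called. Sdc1, the plasma cell marker CD138 that epithelial cells also make, was at 173, 255 and 139 CPM in controls and 90.5, 102, 71.6 and 67.0 CPM in treated tumors and fell (log2 fold change -1.19, SE 0.25, adjusted p = 0.00118). Without control 2 its difference was -0.92, adjusted p = 0.009995. Both culture libraries of 60577 held Sdc1, at 129 and 94.9 CPM. Immunoglobulin constant genes are alike, so their split is uncertain.

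Among genes of lymphoid aggregates 8 of 12 rose and 0 fell (median 1.39). Ltb, lymphotoxin beta, which organizes lymphoid tissue, was at 14.4, 2.08 and 6.85 CPM in controls and 79.6, 44.7, 45.6 and 62.8 CPM in treated tumors (log2 fold change 2.90, SE 0.55, adjusted p = 0.000466). Ccl19, a chemokine of T cell zones, was at 0.0350, 0 and 0 CPM in controls and 6.64, 0.539, 1.61 and 1.83 CPM in treated tumors, from 1 count over the controls and 261 over the treated tumors. Counting error alone put the ratio of treated to control at 224, with a 95% exact interval of 39.8 to 8877, and the model called it higher (adjusted p = 0.000490). Ccl19 has near copies in the mouse genome, as has Ccl21a, so their counts are uncertain. Il7, the survival factor of lymphocytes, rose by 4.18 and Lta by 2.67. Cxcl13, the chemokine of B cell follicles, overlapped between the groups, at 19.8, 4.77 and 8.82 CPM in controls and 34.02, 11.7, 4.94 and 18.3 CPM in treated tumors (log2 fold change 0.63, SE 0.68, adjusted p = 0.439).

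Dendritic cell genes rose in 11 of 13 cases, with 0 lower (median 2.33). Flt3, the receptor on which these cells depend, was at 2.03, 0.605 and 0.873 CPM in controls and 13.2, 10.2, 11.01 and 10.9 CPM in treated tumors (log2 fold change 3.27, SE 0.46, adjusted p = 4.74e-05). Xcr1, a marker of cross-presenting cells, was at 1.29, 0.202 and 0.480 CPM in controls and 7.95, 5.62, 2.86 and 3.28 CPM in treated tumors (log2 fold change 2.89, SE 0.61, adjusted p = 0.00108), and Cd209a, of another subset, at 1.12, 0.302 and 0.262 CPM in controls and 5.45, 2.93, 1.04 and 2.002 CPM in treated tumors (log2 fold change 2.33, SE 0.63, adjusted p = 0.00562). The groups overlapped for Cd209a alone of these, where treated tumor 3 was below control 1. Clec9a rose by 3.68 and Siglech, of plasmacytoid cells, by 2.702. Of 12 MHC class II genes 6 rose and 0 fell (median 1.08), and the summed level overlapped, at 3563, 836 and 2553 CPM in controls and 5145, 4327, 2164 and 2943 CPM in treated tumors, with control 2 the lowest. H2-Oa, which modulates peptide loading in B cells, was at 1.78, 0.370 and 1.05 CPM in controls and 11.3, 4.89, 9.04 and 9.29 CPM in treated tumors (log2 fold change 3.01, SE 0.59, adjusted p = 0.000634). Ciita, the master regulator of the class, was at 126, 25.7 and 81.5 CPM in controls and 183, 178, 256 and 279.9 CPM in treated tumors (log2 fold change 1.53, SE 0.42, adjusted p = 0.00630), so that every treated tumor was above every control. H2-Aa, a classical chain, was at 282, 47.5 and 194 CPM in controls and 499.7, 398, 210.0 and 281 CPM in treated tumors (log2 fold change 0.99, SE 0.49, adjusted p = 0.0957), and was called without control 1 (1.53). Cd74, the invariant chain, at 2186, 481 and 1594 CPM in controls and 3070.1, 2654, 1147 and 1601 CPM in treated tumors, was not called (0.58). With 7SL RNA share as a covariate 2 class II genes rose. In MHC class I 2 of 13 rose, Tap2 and Nlrc5, near the 14.8% of all genes that rose, and 0 fell (median 0.46). Nlrc5, the regulator of this class, was at 80.7, 27.8 and 44.5 CPM in controls and 121, 140.3, 232 and 238 CPM in treated tumors (log2 fold change 1.84, SE 0.41, adjusted p = 0.00155). B2m, the light chain, was at 555, 375 and 439 CPM in controls and 598, 395, 131 and 179 CPM in treated tumors (-0.49) and H2-K1 at 668, 384 and 479 CPM in controls and 654, 497, 297 and 373 CPM in treated tumors (-0.16), and both overlapped.

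Of 20 interferon-stimulated genes 10 rose and 0 fell (median 1.25). Ifit3, whose promoter is printed above, was at 4.51, 1.21 and 3.36 CPM in controls and 7.26, 87.6, 14.7 and 14.0 CPM in treated tumors (log2 fold change 3.35, SE 0.83, adjusted p = 0.00312). Treated tumor 2 stood far above the other tumors, and without it the log2 fold change was 1.99. Isg15, a ubiquitin-like modifier, was at 9.34, 4.77 and 7.46 CPM in controls and 5.15, 36.2, 4.99 and 3.37 CPM in treated tumors, where treated tumor 2 alone was above the controls (log2 fold change 0.79, SE 0.74, adjusted p = 0.370). Cxcl9, a chemokine that interferon gamma induces, was at 8.39, 0.0672 and 2.27 CPM in controls and 28.9, 20.2, 7.01 and 9.54 CPM in treated tumors and was not called (log2 fold change 2.20, SE 0.95, adjusted p = 0.0584), with control 1 inside the treated range. Without control 1 it was called (3.87). The number of genes that rose was 4 without control 2, 5 without control 3 and 4 without treated tumor 2. It was 7 with the block in the fit of all 17 tumors and 0 in the fit of the 7 tumors, with medians of 1.23 and 1.27.

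**Figure D4:**
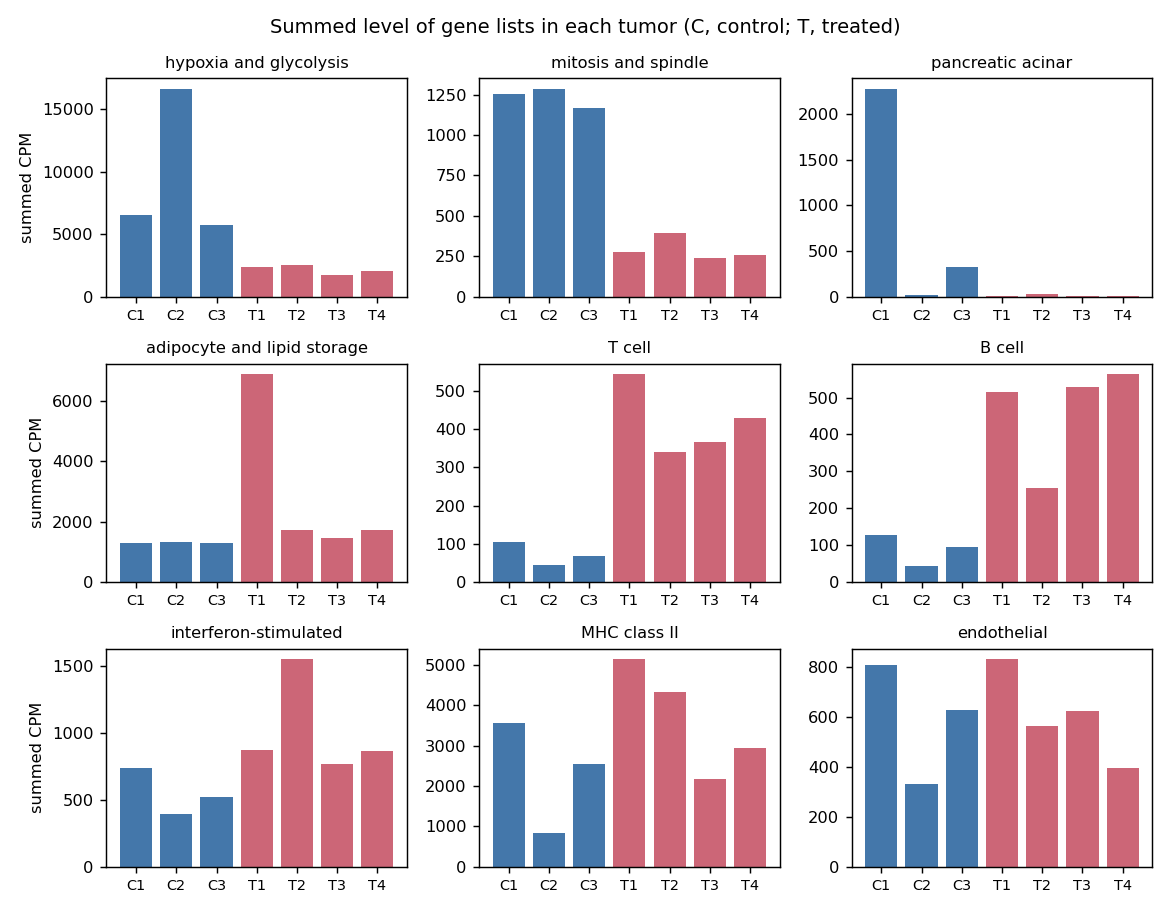
Summed CPM of 9 gene lists in each tumor (C1 to C3, controls; T1 to T4, treated), each panel with its own axis from 0. The hypoxia bar of C2 is 16652 CPM, the acinar bars are high in C1 and C3, T1 has the tallest adipocyte bar, and the T cell and B cell bars of all treated tumors are above those of all controls.

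Of 8 tested neutrophil genes 5 fell and 0 rose (median -1.99), while the summed level of the list overlapped between the groups, at 47.7, 118 and 38.8 CPM in controls and 74.1, 61.8, 40.8 and 56.1 CPM in treated tumors. S100a8, a calcium-binding protein of neutrophils, was at 2.38, 6.96 and 2.84 CPM in controls and 1.11, 0.231, 0.156 and 0.256 CPM in treated tumors (log2 fold change -3.16, SE 0.66, adjusted p = 0.000989), and without control 2 it was -2.51. Cxcr2, the receptor of neutrophil chemokines, was at 2.06, 6.89 and 1.48 CPM in controls and 1.31, 0.963, 0.468 and 0.767 CPM in treated tumors (log2 fold change -1.97, SE 0.62, adjusted p = 0.0131), with control 2 the highest. Without control 2 the difference was -1.0001, adjusted p = 0.180. Csf3r, the receptor of granulocyte colony-stimulating factor, overlapped, at 17.03, 25.5 and 12.05 CPM in controls and 17.97, 15.6, 21.8 and 19.9 CPM in treated tumors (log2 fold change 0.04), and its sign changed with the setting. The granule and surface genes Ly6g, Ngp, Camp, Ltf and Retnlg did not pass the filter, and Ly6g was at 0, 0 and 0.131 CPM in controls and 0, 0, 0 and 0 CPM in treated tumors. Without control 2, 3 of the 8 fell, and in the fit of the 7 tumors with the block 1 fell.

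Of 15 tested inflammatory cytokine genes 9 fell and 1 rose (median -1.45), while the summed level overlapped, at 328, 552 and 249 CPM in controls and 225, 267, 262 and 271 CPM in treated tumors. Cxcl1, a neutrophil chemokine, was at 12.3, 40.3 and 8.60 CPM in controls and 5.11, 4.35, 6.60 and 4.39 CPM in treated tumors (log2 fold change -2.002, SE 0.42, adjusted p = 0.00109), and Cxcl5, of the same family, at 7.62, 38.7 and 3.80 CPM in controls and 2.19, 2.35, 1.92 and 1.07 CPM in treated tumors (log2 fold change -3.15, SE 0.69, adjusted p = 0.00140). Ptgs2 (COX-2) was at 13.7, 114 and 7.12 CPM in controls and 3.42, 4.97, 6.55 and 4.77 CPM in treated tumors (log2 fold change -3.19, SE 0.70, adjusted p = 0.00148). Control 2 was the highest tumor for these 3, and the other 2 controls were also above all 4 treated tumors. Without control 2 the log2 fold changes were smaller, -1.04 for Cxcl1, -1.60 for Cxcl5 and -1.09 for Ptgs2. Il1b was at 19.1, 21.7 and 7.16 CPM in controls and 6.72, 5.16, 7.48 and 4.09 CPM in treated tumors (log2 fold change -1.45, SE 0.44, adjusted p = 0.0105), and treated tumor 3 was above control 3. Without control 2 its difference was -1.17, adjusted p = 0.0547. Ccl2, Ccl3, Cxcl2, Il1a and Lif also fell. Tnf moved the other way, at 2.38, 2.59 and 1.27 CPM in controls and 6.30, 4.12, 8.36 and 9.67 CPM in treated tumors (log2 fold change 1.76, SE 0.43, adjusted p = 0.00288), each treated tumor above each control. Il6 was at 0.350, 1.68 and 0.218 CPM in controls and 0.384, 0.462, 0.779 and 0.724 CPM in treated tumors and was not called (log2 fold change -0.39, SE 0.63, adjusted p = 0.605). Without control 2, 4 of the 15 fell and the median was -0.17. The count that fell was 6 with the replicate number as a block and 1 when only the 7 tumors entered that fit, and 4 with 7SL RNA share as a covariate.

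Macrophage genes did not move together. Of 16 genes of macrophages and of their lipid-associated state 5 fell and 2 rose (median 0.02). Arg1, arginase (chr10:24915221-24927484), was at 144, 696 and 54.6 CPM in controls and 16.2, 26.6, 17.2 and 27.2 CPM in treated tumors (log2 fold change -3.77, SE 0.70, adjusted p = 0.000421). Spp1, osteopontin (chr5:104435118-104441050), was at 214, 427 and 187 CPM in controls and 36.1, 45.9, 30.1 and 15.5 CPM in treated tumors (log2 fold change -3.11, SE 0.53, adjusted p = 0.000227). Both were lower in every treated tumor, and without control 2 the falls were -2.19, adjusted p = 0.00360 and -2.65, adjusted p = 0.00134. Cd9, Lgals3 and Itgam fell too. Csf1r, the receptor that macrophages need, overlapped, at 326, 145 and 275 CPM in controls and 423, 378, 216 and 279.6 CPM in treated tumors (log2 fold change 0.38, SE 0.26, adjusted p = 0.225). Trem2, a lipid receptor, was higher in every treated tumor, at 40.7, 32.5 and 33.2 CPM in controls and 52.0, 53.2, 55.8 and 53.5 CPM in treated tumors, within the limit of 1 (log2 fold change 0.60, SE 0.17, adjusted p = 0.00733). Cd36, a fatty acid transporter of macrophages, adipocytes and endothelium, was at 11.2, 14.2 and 14.1 CPM in controls and 204, 45.6, 18.6 and 19.9 CPM in treated tumors (log2 fold change 2.45, SE 0.67, adjusted p = 0.00610), with treated tumor 1, the highest in adipocyte genes, also highest here. It was 1.08 without treated tumor 1, and the call was lost in the 7 tumors alone (2.45, adjusted p = 0.0524) and with the block in the 7 tumors (2.05, adjusted p = 0.103). Gpnmb rose (2.26). The number that fell was 3 without control 2, without treated tumor 3 or without treated tumor 4. Of 12 resident macrophage genes 2 rose, Mrc1 (1.18) and Mgl2, near the 14.8% of all genes that rose, and 0 fell (median 0.45). Mgl2, a lectin also of dendritic cells, was at 29.2, 1.68 and 18.7 CPM in controls and 90.2, 65.8, 38.8 and 47.0 CPM in treated tumors (log2 fold change 1.87, SE 0.71, adjusted p = 0.0333). This call was lost with the block (1.78, adjusted p = 0.0759) and when control 2 (1.33, adjusted p = 0.0682), control 3 (1.97, adjusted p = 0.0653), treated tumor 1 (1.604, adjusted p = 0.0707) or treated tumor 2 (1.83, adjusted p = 0.0522) was left out. Timd4, Lyve1 and Cd163 overlapped between the groups (0.96, 1.01 and 0.09), and without control 1, 5 of the 12 rose, Cd163 among them (1.08).

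Of 19 complement genes 4 rose and 0 fell (median 0.26). These were Cfd, which adipocytes secrete as adipsin, C7 (3.26), Cfb (1.45) and C4b (1.39). C3, the central component, was at 4767, 5672 and 4789 CPM in controls and 8069.6, 7863, 3088 and 6287 CPM in treated tumors (log2 fold change 0.32, SE 0.27, adjusted p = 0.330), and treated tumor 3 was the lowest of all 7. C1qa, which macrophages make, was at 270.2, 78.8 and 186 CPM in controls and 317, 270.3, 99.0 and 171 CPM in treated tumors (0.26), and the groups overlapped.

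Adipocyte genes rose, with the highest median of all the lists tested. Of 23 tested genes of adipocytes and lipid storage 15 rose and 1 fell (median 3.68), and the summed level was 1269, 1333 and 1292 CPM in controls and 6906, 1709, 1459.6 and 1728 CPM in treated tumors. Adipoq, adiponectin (chr16:23146536-23158028), was at 0.769, 0.0672 and 1.18 CPM in controls and 159, 26.8, 8.21 and 13.2 CPM in treated tumors (log2 fold change 6.32, SE 1.57, adjusted p = 0.00331). Plin1, the coat of the lipid droplet, was at 2.69, 0.773 and 3.14 CPM in controls and 209.8, 40.9, 42.3 and 47.5 CPM in treated tumors (log2 fold change 5.29, SE 1.23, adjusted p = 0.00214). Treated tumor 1 was the highest for both, and the other 3 treated tumors were also above all controls. Adrb3, the adrenergic receptor of fat, was at 0.525, 0 and 0 CPM in controls and 32.8, 9.36, 17.5 and 26.0 CPM in treated tumors (log2 fold change 6.83, SE 1.34, adjusted p = 0.000651), and Cfd at 3.50, 0.0672 and 2.92 CPM in controls and 547, 99.5, 23.2 and 45.9 CPM in treated tumors (log2 fold change 6.39, SE 1.75, adjusted p = 0.00606). Lep, leptin, was at 0.140, 0 and 0.480 CPM in controls and 26.7, 4.66, 5.61 and 4.30 CPM in treated tumors (log2 fold change 5.75, SE 1.56, adjusted p = 0.00566), Car3 at 8.60, 0.202 and 9.82 CPM in controls and 1052, 160.3, 99.1 and 118 CPM in treated tumors (log2 fold change 5.86, SE 1.52, adjusted p = 0.00431) and Cidec at 0.595, 0.0336 and 1.27 CPM in controls and 110.2, 18.3, 14.7 and 17.3 CPM in treated tumors (log2 fold change 6.06, SE 1.45, adjusted p = 0.00264). These genes were at or near 0 in culture, where Plin1, Car3, Cidec and Cfd had 0 counts in both libraries. Without treated tumor 1, 13 of the 23 rose and 2 fell (median 2.703), and the log2 fold changes were 4.63 for Adipoq, 4.31 for Plin1, 4.71 for Cfd, 4.64 for Lep, 4.34 for Car3 and 4.79 for Cidec. Of the other members of the list, the synthesis genes Fasn (0.28) and Acly (-0.24) and the lipase gene Lpl (-0.09) were not called, and Me1, malic enzyme, was at 51.7, 70.9 and 57.4 CPM in controls and 38.7, 27.3, 16.7 and 13.8 CPM in treated tumors and fell (log2 fold change -1.31, SE 0.26, adjusted p = 0.000667).

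Fibroblast genes rose in 7 of 15 cases and fell in 1 (median 0.84). Dpt, dermatopontin, was at 24.9, 5.85 and 5.02 CPM in controls and 163, 58.3, 17.5 and 25.6 CPM in treated tumors (log2 fold change 2.46, SE 0.73, adjusted p = 0.01002), highest in treated tumor 1 and with treated tumor 3 below control 1. It was 1.49 without treated tumor 1. Gli1 (2.25), a target of hedgehog signaling, Pi16 (1.45), Tcf21 (1.39) and Pdgfrb (1.02) rose too. Pdgfra was higher in every treated tumor, at 120.4, 138 and 109 CPM in controls and 200.2, 184, 156 and 171 CPM in treated tumors, within the limit of 1 (log2 fold change 0.54, SE 0.13, adjusted p = 0.00290), and Fap, the activation protein, was at 4.02, 1.48 and 5.37 CPM in controls and 9.14, 6.08, 6.08 and 4.43 CPM in treated tumors (log2 fold change 0.84, SE 0.35, adjusted p = 0.0490). Acta2, smooth muscle actin, overlapped (-0.59), and Col14a1 was at 197, 179 and 217 CPM in controls and 135, 84.4, 50.8 and 69.4 CPM in treated tumors and fell (log2 fold change -1.22, SE 0.26, adjusted p = 0.00114). Of the 15, 4 rose without control 2 and 4 without treated tumor 1.

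Of 28 genes of fibrillar matrix and crosslinking 5 fell and 1 rose (median 0.01). Those that fell were the enzyme genes Lox, Loxl2, P4ha1 and P4ha2, which crosslink or hydroxylate collagen, and Fn1. Col1a1 (chr11:94936224-94953042) was at 3637, 2761 and 2248 CPM in controls and 2279, 4064, 3099 and 3323 CPM in treated tumors (log2 fold change 0.15, SE 0.27, adjusted p = 0.655), and the groups overlapped. Col1a2, Col5a1 and Postn had log2 fold changes of 0.09, 0.28 and 0.04. Lox, lysyl oxidase, was at 255, 408 and 194 CPM in controls and 104, 98.5, 54.4 and 50.1 CPM in treated tumors (log2 fold change -1.89, SE 0.34, adjusted p = 0.000358). P4ha2, a prolyl hydroxylase of collagen that hypoxia induces, was at 54.2, 148 and 44.0 CPM in controls and 16.2, 21.9, 21.04 and 18.4 CPM in treated tumors (log2 fold change -2.08, SE 0.33, adjusted p = 0.000124), and -1.34 without control 2. Loxl2 and P4ha1 had -1.87 and -1.29. Fn1, fibronectin, was at 7732, 14245 and 7355 CPM in controls and 4631, 5015, 2831 and 3489 CPM in treated tumors (log2 fold change -1.29, SE 0.28, adjusted p = 0.00121), all treated tumors below all controls. Without control 2 it was -0.92, adjusted p = 0.0108, within the limit of 1. Lum, lumican, was at 33.4, 8.60 and 33.1 CPM in controls and 171, 87.1, 36.1 and 37.1 CPM in treated tumors (log2 fold change 1.73, SE 0.55, adjusted p = 0.0147), and its call was lost without control 2 (1.32, adjusted p = 0.0589) and without treated tumor 1 (1.09, adjusted p = 0.0583). Without control 1 or control 3, 3 of the 28 rose.

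In the basement membrane list 2 of 17 genes fell and 2 rose (median -0.46), near the 9.61% and 14.8% of all genes that fell and rose. Lamc1, a laminin chain, was at 631, 707 and 636 CPM in controls and 321, 342, 248 and 238 CPM in treated tumors (log2 fold change -1.20, SE 0.15, adjusted p = 2.37e-05). Lama2, a laminin of muscle, fat and nerve, moved the other way, at 14.7, 4.44 and 6.64 CPM in controls and 47.8, 31.3, 16.5 and 54.8 CPM in treated tumors (log2 fold change 2.13, SE 0.55, adjusted p = 0.00413). Both of these had groups that did not overlap. Col4a1 was at 959, 443 and 661 CPM in controls and 597, 447, 293 and 283 CPM in treated tumors and was not called (log2 fold change -0.76, SE 0.31, adjusted p = 0.0473), and Nid1 overlapped (-0.04). Without treated tumor 1, 4 of the 17 fell, Col4a1 among them (-1.03). Of 22 proteases and inhibitors 7 fell and 1 rose (median -0.50). Timp1, an inhibitor of metalloproteinases, was at 95.0, 263 and 42.8 CPM in controls and 34.4, 40.0, 17.8 and 21.3 CPM in treated tumors (log2 fold change -2.23, SE 0.51, adjusted p = 0.00197), and -1.28 without control 2. Serpinb2, an inhibitor of plasminogen activators, was at 13.4, 98.1 and 1.18 CPM in controls and 3.99, 4.005, 0.416 and 1.36 CPM in treated tumors (log2 fold change -3.92, SE 0.94, adjusted p = 0.00260), with control 2 by far the highest and control 3 inside the treated range. Without control 2 it was -1.56, adjusted p = 0.0846. Mmp10 (-3.57), Mmp13 (-3.26) and Plaur (-1.33) fell. Adamts5, an aggrecanase, was at 28.6, 20.7 and 16.9 CPM in controls and 106, 45.1, 47.4 and 58.8 CPM in treated tumors and rose (log2 fold change 1.54, SE 0.38, adjusted p = 0.00310). Mmp14 overlapped (-0.11), and Mmp2 was higher in every treated tumor, at 286, 103 and 265 CPM in controls and 467, 481, 288 and 294 CPM in treated tumors (log2 fold change 0.81, SE 0.29, adjusted p = 0.0270), called without control 1 (1.05).

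Of 14 endothelial genes 3 rose and 1 fell (median 0.41). The summed level was lowest in control 2, at 809, 333 and 628 CPM in controls and 834, 564, 626 and 396 CPM in treated tumors. Single endothelial genes were also lowest in control 2, with Cdh5, VE-cadherin, at 54.0, 0.706 and 25.8 CPM in controls and 51.7, 17.7, 22.5 and 9.37 CPM in treated tumors (log2 fold change -0.08), Plvap at 68.5, 0.504 and 32.9 CPM in controls and 86.4, 27.3, 37.9 and 20.96 CPM in treated tumors (0.35) and Pecam1 at 79.9, 10.8 and 40.4 CPM in controls and 136, 62.4, 91.2 and 51.8 CPM in treated tumors (0.96). These 3 genes were not called. Without control 1, 5 of the 14 rose, Pecam1 among them (1.74), and without control 2, 1 rose and the median was -0.13. Cldn5, a tight junction protein, was at 3.50, 0 and 2.79 CPM in controls and 14.4, 9.40, 15.8 and 6.39 CPM in treated tumors (log2 fold change 2.46, SE 0.85, adjusted p = 0.0220), and 1.86 without control 2. Flt1, a VEGF receptor that the tumor line also made in culture, was at 225, 232 and 175 CPM in controls and 60.6, 90.2, 90.0 and 70.6 CPM in treated tumors and fell (log2 fold change -1.44, SE 0.16, adjusted p = 8.24e-06). Without treated tumor 1 or treated tumor 3, 1 endothelial gene rose, and with 7SL RNA share as a covariate 0 did.

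Transcripts of neighboring tissues were unevenly spread. All 13 tested genes of the pancreatic acinus fell (median -7.03), but the summed level was 2278, 17.1 and 328 CPM in controls and 9.22, 27.3, 7.38 and 8.69 CPM in treated tumors, with control 2 inside the treated range and controls 1 and 3 far above it. Cpa1, a carboxypeptidase of pancreatic juice, was at 184, 0.101 and 26.3 CPM in controls and 0.230, 1.27, 0.468 and 0.128 CPM in treated tumors (log2 fold change -7.03, SE 1.498, adjusted p = 0.00116), with control 2 below every treated tumor. Prss2, a trypsinogen, was at 91.6, 0.302 and 22.6 CPM in controls and 0.0768, 0.578, 0.104 and 0 CPM in treated tumors, Ctrb1 at 366, 0.134 and 93.6 CPM in controls and 0.192, 3.58, 0.416 and 0.170 CPM in treated tumors and Pnlip at 194, 0.370 and 27.0 CPM in controls and 0.154, 3.54, 0.416 and 0.298 CPM in treated tumors, in the same order over the controls. Reg1 had 977 counts over the controls, 0 of them in control 2, and 2 over the treated tumors, a ratio of control to treated of 569 with a 95% exact interval for counting error of 157 to 4709. By limma-voom 2 of the 13 genes fell, in the joint fit with HGS2 0, and in the fit of the 7 tumors with the block 1. In the joint fit Cpa1 kept its log2 fold change of -7.03 with adjusted p = 0.0666, and by limma-voom it had -4.26, adjusted p = 0.289. Without control 1 the log2 fold changes were -4.61 for Cpa1, -5.82 for Prss2, -5.37 for Ctrb1 and -3.59 for Pnlip. The transcription factor Ptf1a did not pass the filter. Of 5 tested erythroid genes 4 fell and 0 rose (median -2.79). Hba-a1, alpha globin, was at 147, 547 and 298 CPM in controls and 71.0, 17.02, 44.3 and 17.3 CPM in treated tumors (log2 fold change -3.15, SE 0.71, adjusted p = 0.00172), and Alas2, of heme synthesis, at 2.13, 10.05 and 6.29 CPM in controls and 1.19, 0.501, 1.25 and 0.639 CPM in treated tumors (log2 fold change -2.79, SE 0.77, adjusted p = 0.00646). The second alpha globin gene Hba-a2, nearly identical to Hba-a1, had 1.66 and was not called, and the split of reads between them is uncertain. With 7SL RNA share as a covariate, or in the fit of the 7 tumors with the block, 0 erythroid genes fell.

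Of 5 tested mast cell genes 3 rose and 1 fell (median 2.10). Cpa3, a mast cell protease, was at 0.315, 0.0672 and 0.175 CPM in controls and 1.77, 0.886, 0.571 and 1.36 CPM in treated tumors (log2 fold change 2.61, SE 0.94, adjusted p = 0.0260). The call was lost with the block (2.42, adjusted p = 0.0564) and without control 2, control 3 or treated tumor 1 (2.19, adjusted p = 0.0935; 2.58, adjusted p = 0.0633; 2.31, adjusted p = 0.0566). Mcpt4, another, at 0.420, 0.0672 and 0.175 CPM in controls and 1.80, 0.924, 0.675 and 0.426 CPM in treated tumors (log2 fold change 2.10, SE 0.73, adjusted p = 0.0229), lost it when the same tumors were left out (1.65, 1.98 and 1.58). Kit, the stem cell factor receptor, was at 24.3, 40.7 and 26.5 CPM in controls and 17.1, 13.9, 11.5 and 9.54 CPM in treated tumors and fell (log2 fold change -1.23, SE 0.25, adjusted p = 0.000816), with -0.96, adjusted p = 0.00690 without control 2. Cma1 overlapped (1.19). Without control 2, 1 of the 5 rose and 0 fell. In eosinophils Ccr3, the eotaxin receptor, rose from 0.105, 0.0672 and 0.131 CPM to 0.614, 0.616, 0.571 and 0.596 CPM (log2 fold change 2.54, SE 0.54, adjusted p = 0.00115), while Siglecf overlapped (-0.77) and the granule gene Epx was at 0 in all 7 tumors. In the remaining lists of other tissues, 2 liver, 1 intestinal and 2 Schwann cell genes were tested and 0 were called. Alb, albumin, was at 12.3, 0.773 and 13.1 CPM in controls and 4.57, 2.27, 0.104 and 0.682 CPM in treated tumors (log2 fold change -2.16, SE 1.61, adjusted p = 0.260), again lower in control 2 than in controls 1 and 3, and Apoa1 did not pass the filter.

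The protein-coding genes with the largest rises included adipocyte genes and the fat-enriched genes Nnat, Thrsp, Slc7a10 and Tshr. Slc7a10, an amino acid transporter of white adipocytes, was at 0.175, 0 and 0.0437 CPM in controls and 13.2, 3.35, 8.94 and 8.44 CPM in treated tumors (log2 fold change 6.76, SE 1.34, adjusted p = 0.000705). Nnat, neuronatin, was at 0.210, 0.235 and 0.349 CPM in controls and 93.7, 17.1, 13.4 and 12.7 CPM in treated tumors (log2 fold change 7.02, SE 1.56, adjusted p = 0.00154), and Thrsp, which regulates lipid synthesis, at 0.595, 0 and 0.393 CPM in controls and 53.8, 8.43, 7.84 and 13.8 CPM in treated tumors (log2 fold change 6.01, SE 1.33, adjusted p = 0.00148). Tshr, the thyrotropin receptor, was at 0.175, 0 and 0.262 CPM in controls and 18.1, 3.77, 3.07 and 2.30 CPM in treated tumors (log2 fold change 5.59, SE 1.36, adjusted p = 0.00290). Treated tumor 1 was the highest in these 4 genes, and all treated tumors were above all controls. Without treated tumor 1 the log2 fold changes were 5.75 for Nnat, 4.92 for Thrsp and 4.41 for Tshr, and without control 2 6.14 for Slc7a10.

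The largest falls also included genes outside the acinar list. Cxcl17, a mucosal chemokine, was at 10.6, 16.8 and 12.6 CPM in controls and 0.0384, 0.616, 0.364 and 0.128 CPM in treated tumors (log2 fold change -5.52, SE 0.48, adjusted p = 1.53e-06). Pgc, a gastric protease precursor, was at 158, 122 and 209.8 CPM in controls and 8.99, 13.8, 5.97 and 2.85 CPM in treated tumors (log2 fold change -4.36, SE 0.41, adjusted p = 2.38e-06). Plet1, a surface protein of epithelial progenitors, was at 25.1, 33.4 and 14.6 CPM in controls and 1.84, 1.54, 1.299 and 1.02 CPM in treated tumors (log2 fold change -4.09, SE 0.39, adjusted p = 2.65e-06), and Slc28a3, a nucleoside transporter, at 17.5, 15.3 and 9.78 CPM in controls and 0.346, 1.23, 0.987 and 0.511 CPM in treated tumors (log2 fold change -4.21, SE 0.46, adjusted p = 6.63e-06). For these 4 genes each treated tumor was below each control, and in culture the 60577 line held Pgc at 26.5 and 15.3 CPM. Sprr1a, of keratinizing cells, was at 1.71, 19.8 and 0.960 CPM in controls and 0.192, 0.0770, 0 and 0.170 CPM in treated tumors (log2 fold change -5.97, SE 1.06, adjusted p = 0.000308), highest in control 2 and -3.50 without it. Cpn1, a carboxypeptidase of plasma, was at 18.4, 7.83 and 3.97 CPM in controls and 0.0384, 0.347, 0.727 and 0.639 CPM in treated tumors (log2 fold change -4.55, SE 0.58, adjusted p = 2.31e-05), and -3.78 without control 1. Slc38a3, a glutamine transporter, was at 14.4, 0.571 and 1.40 CPM in controls and 0.269, 0.462, 0.260 and 0.0426 CPM in treated tumors (log2 fold change -4.37, SE 1.03, adjusted p = 0.00243), and without control 1 its difference was -1.87, adjusted p = 0.0778. The pancreas-enriched genes Try5 and 2210010C04Rik fell (log2 fold changes -7.73 and -6.56), with the controls in the same order as the acinar list.

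The response at TP2 was compared with that 1 day after the last dose, which used separate control tumors. At TP1 1567 genes rose (9.65%) and 968 fell (5.96%). Of the genes that rose at TP2, 972 (40.4%) had risen at TP1, which is 62.0% of those that rose at TP1, and of the genes that fell, 586 (37.5%) had fallen, 60.5% of those of TP1. There were 35 genes that fell at TP2 and had risen at TP1, and 3 of the opposite kind. The difference of the 2 responses, tested as an interaction contrast, was called for 1129 genes (6.95%), 582 with a higher (3.58%) and 547 with a lower response (3.37%) at TP2. This number depended on single tumors of both time points. It was 262, 379 and 716 without TP1 controls 1, 2 and 3, 144 and 494 without TP1 treated tumors 1 and 3, 336 without TP2 control 2, and 2261, 578 and 558 without TP2 treated tumors 1, 3 and 4. With the replicate number as a block it was 556, and in the joint fit with HGS2 163.

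Most genes of the neutrophil, lipid-associated macrophage and cytokine lists had higher responses at TP1 than at TP2. All 8 neutrophil genes rose at TP1 (median 2.43), and for all 8 the TP2 response was lower by the test of the difference. S100a8 moved by 2.50 at TP1 and -3.16 at TP2 (difference -5.66, adjusted p = 0.0126). Of the 16 genes of macrophages and their lipid-associated state 11 rose at TP1 and 12 had a lower response at TP2, with Spp1 at 1.84 and -3.11 (difference -4.95, adjusted p = 0.0114) and Arg1 at 2.30 and -3.77 (difference -6.08). Inflammatory cytokines had 9 of 15 genes higher at TP1 and 11 with a lower response at TP2, among them Il1b (difference -3.28) and Cxcl1 (-3.26). Other myeloid lists did not follow this order, with 1 of 12 resident macrophage genes higher at TP1 and 2 at TP2, and 3 of 13 dendritic cell genes higher at TP1 and 11 at TP2. Of 22 proteases and inhibitors 13 had a lower response at TP2, Timp1 among them (-3.90). TP2 control 2 was the highest TP2 tumor for S100a8, Spp1, Arg1, Il1b, Cxcl1 and Timp1. Their TP2 changes without it were -2.51, -2.65, -2.19, -1.17, -1.04 and -1.28, and its part in the called differences was not tested.

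Of 20 hypoxia genes 18 fell at TP2 and 3 at TP1, and the difference of the responses was called for 11, such as Slc2a1 (0.29 at TP1 and -2.59 at TP2, difference -2.88). The TP2 change of Slc2a1 was -1.35 without TP2 control 2, the tumor highest in the hypoxia list. The part of that tumor in the 11 calls was not tested. Tubulins had 8 of 12 lower responses at TP2, among them Tubb5 (-1.33) and Tubb3 (-3.25). Mitosis genes had fallen at TP1 already, 21 of 21 (median -1.84), and the difference was called for 0 of them. Of the p53 targets 12 of 20 rose at TP1 (median 1.09). Cdkn1a had 3.49 at TP1 against 0.46 at TP2, a difference of -3.03 (adjusted p = 0.0330), while for Eda2r the difference of 0.83 was not called. T cell genes rose in 15 of 22 cases at TP1 and 3, Bcl11b, Cd28 and Tcf7, had a higher response at TP2. Of the B cell genes 3 of 17 rose at TP1 (median 1.31), and 2, Cr2 (3.40) and Fcrla (1.62), had a higher response at TP2. The adipocyte list had 13 of 23 genes higher at TP1 and 0 called differences. Of the class II genes 2 had a higher response at TP2, Ciita (2.18) and H2-Ob (2.62).

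Outside the lists, the largest positive differences from TP1 included those of Pcdh9 (4.28), a protocadherin, at 0.175, 0.504 and 0.0873 CPM in controls and 1.42, 2.12, 2.91 and 5.07 CPM in treated tumors at TP2, Anks1b (3.23) and Nap1l3 (3.22). At TP2 alone Nap1l3 lost its call without control 2 (1.52, adjusted p = 0.0838). The largest negative differences were those of acinar genes and of Gm14288, which had 57 counts over the TP2 controls, nearly all in control 3, and 0 over the treated tumors, at least 6.42-fold lower by a floor of 3 counts per library. The acinar list had a median of 4.07 at TP1, where 0 of its genes were called. Its differences thus join positive values at TP1 with the acinar transcripts of TP2 controls 1 and 3.

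The HGS2 model at the same time point and doses was compared in a joint fit of 33 tumors, from which an HGS2 tumor of a later time point was left out because the study's tables do not show it. The models differ in cell line, in mouse strain and, by the methods of the study, in the time from cell injection to the start of treatment, which was longer in HGS2, and these cannot be told apart. In HGS2 0 genes were called by edgeR, although 2214 had an unadjusted p-value below 0.05, 0 by limma-voom and 201 by the DESeq2 Wald test. HGS2 control 2 stood apart from the other HGS2 TP2 controls. Its chi-square per degree of freedom in pairs with them was 624 to 713, while pairs of the others gave 64.0 to 134. The HGS2 response by itself was not tested without that tumor. The difference of the 60577 and HGS2 responses was called for 1120 genes (6.9%), 522 with a higher (3.21%) and 598 with a lower response (3.68%) in 60577. This number was 365 without 60577 TP2 control 2, and 694 and 630 without 60577 treated tumors 3 and 4. It was 853 without HGS2 control 2, 619 and 703 without HGS2 treated tumors 1 and 3, and 679 with the replicate number as a block. Transcripts of cell division separated the models. By protein staining at TP2, the paper reports less PCNA after chemotherapy in both models and no significant difference in proliferation between them. The mitosis list had a median of -0.06 in HGS2, and 20 of its 21 genes had a lower response in 60577, as had 23 of 25 replication genes (HGS2 median 0.06). Cdk1 had -0.06 in HGS2 and a difference of -2.48 (adjusted p = 0.00862), and Mcm2 -0.04 and -2.07. Repair genes followed, with 8 of 20 lower and 1 higher. Of the hypoxia genes 12 of 20 had a lower response in 60577, among them Slc2a1 (-2.73) and Vegfa (-1.93). The TP2 changes of these 2 genes in 60577 were -1.35 and -1.30 without 60577 control 2. Spp1 had 2.38 in HGS2 and a difference of -5.48, and Serpinb2 3.40 and -7.30. Without 60577 control 2 the TP2 change of Serpinb2 in 60577 was -1.56 and was not called.

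For B cell genes the HGS2 median was -1.59, and 8 of 17 had a higher response in 60577. Cr2 had -2.56 in HGS2 and a difference of 7.12 (adjusted p = 0.0438), Pax5 6.59 and Blk 6.67. The T cell list had a median of 0.86 in HGS2, and a difference was called for 1 of 22 genes, Cd28 (3.30). Interferon-stimulated genes had a median of 1.61 in HGS2, and 0 of 20 differences were called. The epithelial list had -1.62 in HGS2 with 0 called differences. The adipocyte median was 0.19 in HGS2, yet 0 of 23 differences were called, with SEs such as 2.17 for Adipoq, whose difference was 5.91. Outside the lists, Ano3, an ion channel, was at 0 in all 3 60577 controls and at 2.07, 2.04, 0.571 and 3.49 CPM in the treated tumors, at least 18.2-fold higher by a floor of 3 counts per library, with a called difference from HGS2. Pla2g2d, a phospholipase of dendritic cells and macrophages, was at 1.99, 0.0672 and 1.22 CPM in controls and 49.1, 22.3, 10.5 and 21.9 CPM in treated tumors (log2 fold change 4.58, SE 0.75, adjusted p = 0.000168), with a difference of 6.40.

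**Figure D5:**
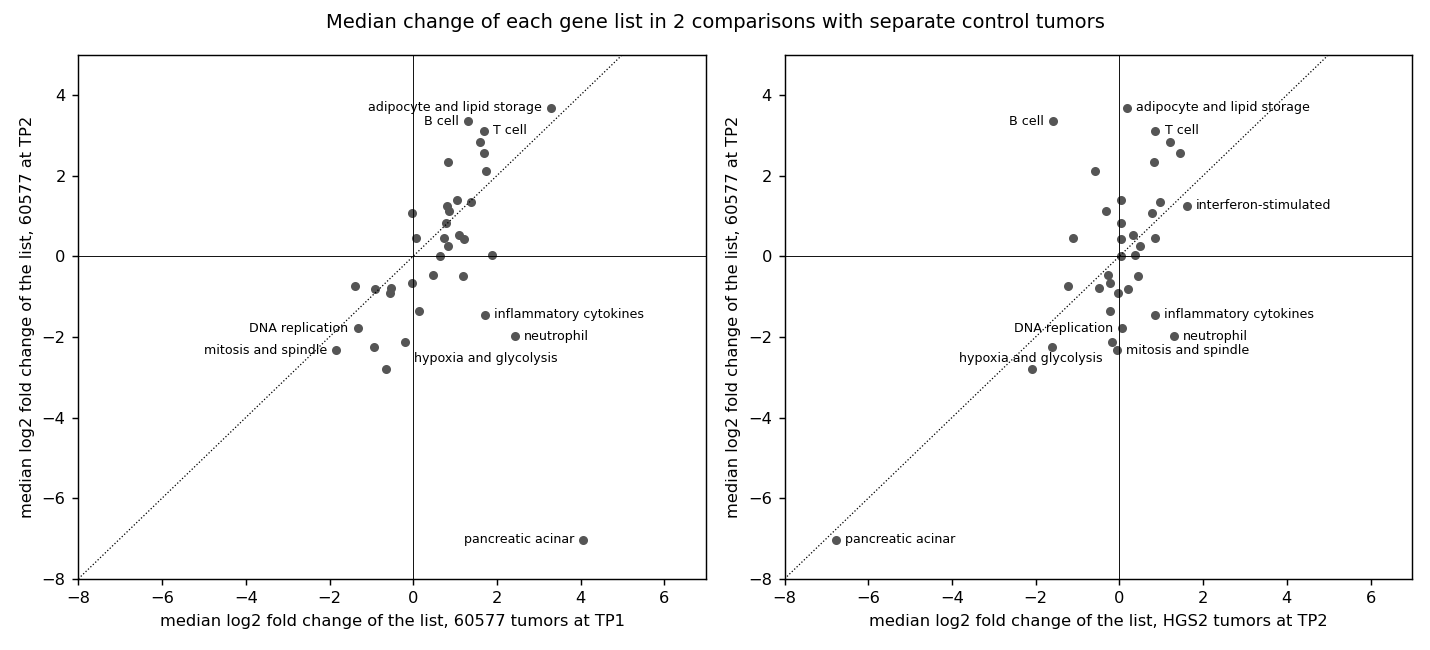
Median log2 fold change of each gene list with at least 5 tested genes in 60577 tumors at TP2 (y axis) against that of the same list in 60577 tumors at TP1 (left) or in HGS2 tumors at TP2 (right). Each point is a list, the dotted line marks equal medians, and the axes are on the log2 scale. Hypoxia, neutrophil and inflammatory lists lie below the line at left, and the mitosis list lies near 0 in HGS2 and at -2.34 in 60577.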

How the data were processed

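Bulk RNA of 38 samples was measured, of which 7 carry the comparison described above. Per the labels and the methods of the study, the authors trimmed paired reads with Trim Galore 0.6.5, mapped them to GRCm38 with STAR 2.7.0f and counted genes with RSEM, and the deposited values are RSEM's expected counts per gene and library, not normalized. The authors' later length and GC correction is not in these values. Expected counts were rounded. A gene was kept if 25% or more of 33 tumors had 1 CPM or more (1 HGS2 TP3 tumor, shown in none of the study's tables, was left out of this filter and of the joint fit). edgeR 4.0.16 (R 4.3.3) fitted all 17 tumors of 60577 in 5 groups with TMM normalization and two-sided quasi-likelihood tests, with Benjamini-Hochberg adjustment over all 16241 genes, and HGS2 was fitted jointly with 60577. SE is the absolute log2 fold change over the square root of F. Calls needed an adjusted p under 0.05 with a log2 fold change beyond 1 in either direction. Alternatives, among them limma-voom (limma 3.58.1), DESeq2 1.42.0, other filters, offsets, a replicate block and leaving out each tumor, are given in the closing section, and the 7SL covariate, the block in the 7 tumors alone and the HGS2 tests by other tools were chosen after seeing the data. Named genes were the key genes of each list with its largest called rise and fall, the 10 called protein-coding genes with the largest rise and the 10 with the largest fall whose groups did not overlap and which had over 3 counts in a library of each group, and, for each difference of responses, the 5 largest called in each direction. Some genes that these rules name are not reported here. Other members given by their fold changes were chosen after their values were seen. Members and the 42 lists were chosen with earlier results of these data known. Of 613 list symbols 612 matched. Gene positions are from GENCODE M21 (GRCm38).

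In TP2 the deviations from group means of same-numbered tumors correlated at 0.144, 0.114 and 0.134, and those of other pairs at -0.094 to 0.063, so the replicate numbers were taken to pair the tumors. The labels do not say what they mark, and the reported test does not use them. Replicates were compared, and in all 9 replicate pairs of TP2 they differed beyond sampling noise (chi-square per degree of freedom 37.6 to 237). By that measure TP1 control pairs gave 9.38 to 25.5, TP1 treated pairs 44.0 to 90.2 and TP3 treated pairs 17.6 to 52.4. The labels name separate tumors of each group. The TP2 p-values rest on a spread per gene shared by all 60577 tumors of the fit, not on that of TP2 alone. This shared spread may be too small for the TP2 tumors, and the p-values too low. With only the 7 TP2 tumors in the fit 3567 genes were called. Counting intervals and floors cover counting error only. Counts were also simulated for the TP2 comparison with 16241 genes. Of 66 genes changed by 1.5 on the log2 scale, 80.3% were called. Of 67 changed by 2, 92.5% were called, and of 67 changed by 3, 100.0%. Of the 16041 unchanged genes 4 were called. In the measured tumors 3969 genes (24.4%) were called, a far larger share than was changed in the simulation. The rates above hold for the simulated counts only. Whether they carry over to measured tumors that stood apart, or to a spread that differs between groups, was not tested. The share of false calls among the 3969 genes was not tested either.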

Additional observations from a re-analysis of the deposited data

Results flagged for a closer look

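Among the 4 treated tumors, 1 tumor stood apart from the other 3 for 15 of 166 named genes and 40 list sums tested, by the gap to the nearest tumor as a share of the range, as Dixon's test for 4 samples uses it. Chance flags about 1 in 20 groups. Treated tumor 1 was high for Cidec (0.893), Lep (0.856), Nnat (0.854), Plin1 (0.908) and the summed adipocyte (0.891), dendritic cell (0.834) and regulatory T cell (0.856) lists, and low for Wt1 (0.878). Treated tumor 2 was high for Pnliprp1 (0.917), Reg1 (1.000), Try5 (1.000) and the summed acinar list (0.830), and low for the summed B cell list (0.884). For Reg1 and Try5 the other treated tumors were all at 0, and tumor 2 was at only 0.0770 and 0.308 CPM. The ratio of 1.000 then follows from the tie at 0. Treated tumor 3 was low for Cdkn1a (0.866), and treated tumor 4 was high for Anks1b (0.851).

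The response at TP2 differed from that at TP1 in the interaction test for 30 named genes, listed with the TP2 minus TP1 difference of log2 fold changes. These were 2210010C04Rik -13.34, Anks1b 3.23, Cdkn1a -3.03, Ciita 2.18, Col4a1 -1.59, Cpa1 -11.65, Cr2 3.399, Csf3r -1.93, Ctrb1 -14.72, Cxcl1 -3.26, Cxcr2 -4.33, Fn1 -1.83, Gm14288 -14.67, Il1b -3.28, Ldha -1.97, Lox -1.796, Nap1l3 3.22, Pcdh9 4.28, Pcna -1.23, Pnlip -9.52, Prss2 -14.95, Reg1 -13.84, Rrm2 -1.27, S100a8 -5.66, Slc2a1 -2.88, Spp1 -4.95, Timp1 -3.896, Trem2 -1.01, Tubb3 -3.25 and Tubb5 -1.33. Among them the pancreas genes 2210010C04Rik, Cpa1, Ctrb1, Pnlip, Prss2 and Reg1 were higher in TP2 controls 1 and 3 than in control 2.

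The 60577 response at TP2 differed from that of HGS2 for 28 named genes, listed with the 60577 minus HGS2 difference of log2 fold changes. These were Ano3 7.66, Blk 6.67, Cdk1 -2.48, Cr2 7.12, Cxcl1 -2.67, Cxcl17 -5.297, Cxcl5 -6.16, Cxcr2 -3.57, Fancd2 -1.51, Fn1 -1.39, Il1b -3.32, Ldha -1.93, Lox -1.92, Mcm2 -2.07, Mki67 -1.497, Pax5 6.59, Pcna -2.12, Pla2g2d 6.398, Plk1 -1.995, Rrm2 -2.104, Serpinb2 -7.300, Slc2a1 -2.73, Spp1 -5.48, Sprr1a -6.84, Stmn1 -2.41, Timp1 -3.42, Tubb5 -1.19 and Vegfa -1.93.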

How the results depend on the processing

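Called genes numbered 3433 (without control 2) to 4346 (without treated tumor 1) when each TP2 tumor was left out, 3966 by limma-voom, 4021 by DESeq2, 4916 with filterByExpr and 5179 without a filter on low counts, and the count stayed within 1.5 times the reported 3969 in every alternative run. The replicate number as a block gave 3749, and 2737 in the 7 tumors alone. The 7SL share as a covariate gave 2750, of which 1674 were higher and 1076 lower. Of the called genes 60.7% were higher, against 53.2% with the offset for length and GC content and 51.4% with the block and that offset, which moved the median of all genes to -0.10 and -0.13. Of 118 named genes that were called, 73 kept call and direction in every alternative, 45 lost the call in at least 1 and 0 reversed. With single TP2 tumors left out, the fold of 64 of them moved by over 1.5 times in at least 1 case. Of 80 list counts, 45 stayed within 1.5 times. The difference from TP1 (1129 genes) was 163 in the joint fit with HGS2, 556 with the block, and 144 (without TP1 treated tumor 1) to 2261 (without TP2 treated tumor 1) with 1 tumor left out. Of its calls 51.6% were higher responses at TP2, against 28.6% with the offset and 18.3% with the block and the offset. The difference from HGS2 (1120 genes) was 679 with the block, 550 with the block and the offset, and 365 (without 60577 TP2 control 2) to 1474 (without 60577 TP2 treated tumor 1) with 1 tumor left out. The offset moved the median of all genes to -0.18 for the difference from TP1 and to 0.12 for that from HGS2. In HGS2 alone 201 genes were called by DESeq2 and 0 by edgeR. Genes that changed sign were all uncalled in the reported fit. With the 7SL share as a covariate, the sign changed for Cd163 at -0.38, Col1a1 at -0.038, Csf3r at -0.25 and Nid1 at 0.13. With an offset for length and GC content, the sign changed for Cd163 at -0.027, Col1a1 at -0.12 and Csf3r at -0.13. By limma-voom, the sign changed for Cdh5 at 1.17 and Il6 at 0.046. With the replicate block, the sign changed for Cdh5 at 0.19 and Csf3r at -0.044. With the block and that offset, the sign changed for Cdh5 at 0.12, Col1a1 at -0.092 and Csf3r at -0.22. With the block in the 7 tumors, the sign changed for Cdh5 at 1.05. With filterByExpr, the sign changed for Csf3r at -0.012. Without a filter on low counts, the sign changed for Csf3r at -0.022. With single TP2 tumors left out, the log2 fold changes of those that changed sign ranged widely: C1qa -0.091 to 0.69, Cd163 -0.32 to 1.08, Cdh5 -0.72 to 0.95, Cdkn1a -0.029 to 2.26, Col1a1 -0.0035 to 0.35, Csf3r -0.18 to 0.37, H2-K1 -0.41 to 0.079, Il6 -0.81 to 0.998, Isg15 -0.68 to 1.10, Jchain -0.42 to 2.33, Mmp14 -0.30 to 0.0053, Nid1 -0.61 to 0.34 and Plvap -0.26 to 1.38. The replicate numbers were taken to pair the TP2 tumors, but the labels do not say what they mark. As a block in all 17 tumors these numbers ended the calls of Cd8a, Cpa3 and Mgl2. The cause of these changes was not tested. Depth set the floor of 3 counts at 0.112 CPM on average for controls and 0.129 CPM for treated tumors. The other 60577 tumors enter the first comparison through the shared spread, and in a fit of the 7 TP2 tumors without them 3567 genes were called.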
